A study of Arabidopsis thaliana with 24 samples.

Results

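Of 37051 nuclear genes in the deposited tables of Arabidopsis thaliana leaves, 70 were present in emerging leaves and at or near 0 in expanding leaves. They are the genes whose mean over the 12 emerging-leaf libraries was at least 10 and whose mean over the 12 expanding-leaf libraries was at most 0.5, in CPM, which here are a library's counts scaled to one fixed total of nuclear counts, after chloroplast and mitochondrial genes were dropped. The genes were thus selected on their levels at the 2 leaf ages, so the difference between leaf ages is a description and carries no test. The 70 genes are 0.567% of the 12340 genes with an emerging mean of at least 10, and the opposite pattern was held by 65 genes.

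The study sequenced mRNA of whole leaves of gtl1-4, in which the gene of the trihelix factor GTL1 is knocked out, and of its wild type, the accession Col-0. Plants of both genotypes grew in a chamber with an 8 h photoperiod and were kept under water deficit (WS) at a media water content of 30%, or well-watered (WW) at 65 to 100%. Emerging leaves were taken at 1 day and expanding leaves at 14 to 15 days after emergence. The 8 groups are gtl1-4 under deficit, Col-0 under deficit, well-watered gtl1-4 and well-watered Col-0 at each leaf age, with 3 libraries a group and 10 plants pooled in each library. A single knockout allele was used, and the plants carried no other change named in the labels.

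A leaf of Arabidopsis emerges while its cells still divide. In that phase the epidermis is patterned: asymmetric divisions set up the stomatal lineage, trichomes are initiated, and a cuticle of cutin and wax is laid over new wall. Growth-regulating factors and their coactivator AN3 keep cells dividing, and when divisions cease, cells expand and often replicate their DNA without dividing. GTL1 is known as a repressor of the stomatal patterning gene SDD1 and as a regulator that ends endoreduplication in trichomes.

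Emerging libraries held 11.4 to 32.8 M nuclear counts and expanding libraries 4.74 to 10.0 M. The labelled proliferating state of emerging leaves was checked against mitosis genes: all 32 of that list had a higher mean in emerging leaves, and their summed level was 1280 to 1772 CPM in emerging libraries and 41.8 to 82.5 CPM in expanding ones. Genes of the mature photosynthetic leaf summed to 32304 to 44066 CPM in emerging libraries and 59874 to 80930 CPM in expanding ones. Markers of other organs were low in emerging libraries: 12 floral organ identity genes summed to at most 0.966 CPM, 13 seed storage genes to at most 0.911 CPM and 9 anther and pollen genes to at most 4.98 CPM. The 10 root genes summed to 2.61 to 14.7 CPM in emerging libraries and to at most 0.64 CPM in expanding ones, with 4 of the 10 at 0 in every emerging library. GTL1 had 10.6, 7.22 and 8.95 CPM in gtl1-4 and 59.9, 46.2 and 47.9 CPM in Col-0 under deficit, and 14.1, 14.5 and 19.5 CPM in gtl1-4 and 70.4, 68.3 and 62.6 CPM in Col-0 when well-watered. In bulk tissue, fewer cells of a type and less RNA per cell cannot be told apart.

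All 70 genes were above 0 in every emerging library, with means of 10.3 to 492 CPM and a median of 16.7 CPM. In expanding leaves their means had a median of 0.166 CPM and a maximum of 0.477 CPM, and the highest value in any single library was 1.90 CPM. There 20 genes were at 0 in at least 10 of the 12 libraries, and 5 genes (AT1G62500, AT1G06100, TYRDC, AT3G56220 and AT4G28160) were at 0 in all 12. Across the 12 expanding libraries together, a count of 0 allows a mean of up to 0.0381 CPM, for counting error alone. Summed over the genes, emerging libraries held 20755 to 71875 counts and expanding libraries 31 to 141.

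**Figure D1:**
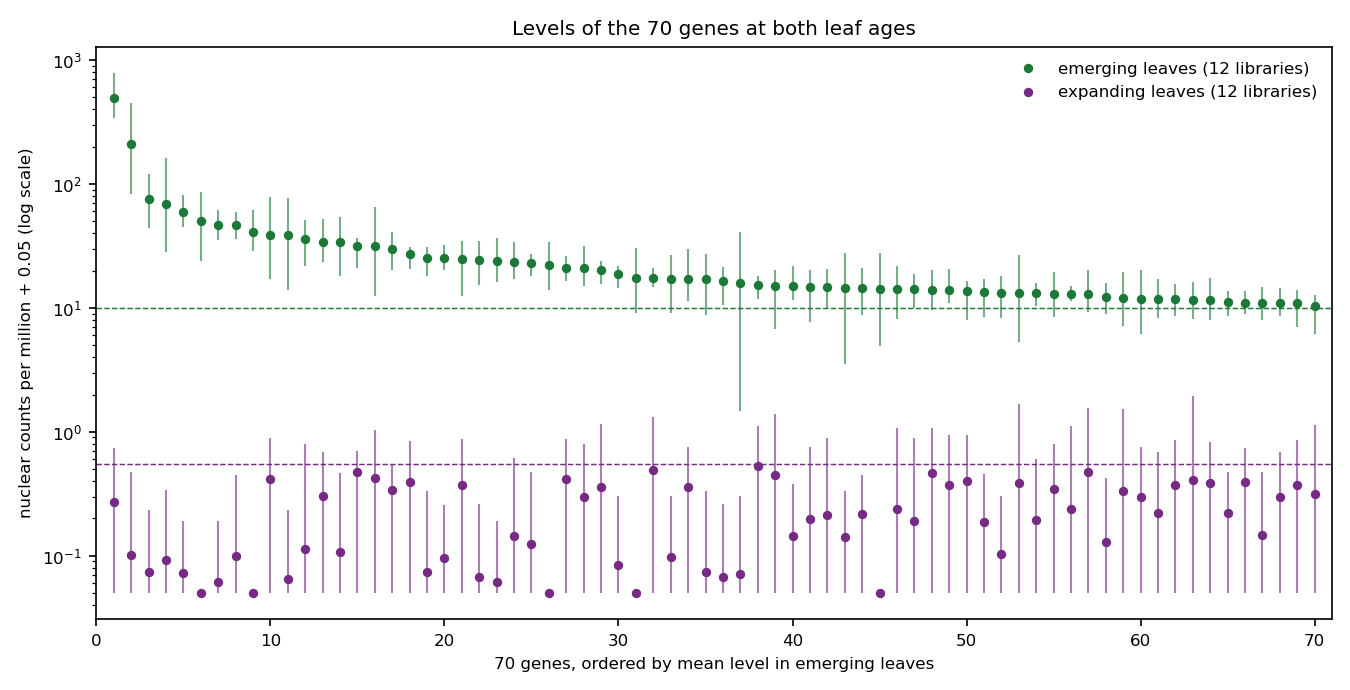
Level of each of the 70 genes in emerging and expanding leaves, in nuclear CPM plus 0.05 on a log axis; points are means and lines run from the lowest to the highest of 12 libraries. Dashed lines are the limits of 10 and 0.5 that chose the genes. Most genes lie just above the upper limit, while AT2G33850 reaches a mean of 492 CPM.

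The limits cut through a continuum. Just inside the emerging limit were the noncoding gene AT1G04425 at 10.3 CPM, AT5G36710 at 10.8 CPM and the receptor-like kinase gene MRLK at 10.9 CPM, and just outside were AT2G38160 at 9.99 CPM, AT1G67780 at 9.84 CPM and AT1G61450 at 9.72 CPM. At the expanding limit, JASON with 0.477 CPM, AT2G20590 with 0.446 CPM and IQD26 with 0.427 CPM were inside, and ATXR6, AT2G33400 and the mitotic cyclin gene CYCB1;1 lay outside, the last of these at 0.505 CPM.

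The reference annotation (TAIR10.1) lists 68 of the 70 as protein-coding and 2 as noncoding RNA, spread over chromosomes 1 to 5 with 19, 10, 16, 9 and 16 genes. Per kilobase of exon, AT2G33850 stood highest at 404 CPM per kb (chr2:14320865-14322082), followed by AT5G33370 at 134.7 CPM per kb (chr5:12602468-12604832) and the uncharacterized AT5G57123 at 88.4 CPM per kb, against a median of 11.6 CPM per kb over the 70. The bHLH35-like transcription factor gene AT1G29270 had 37.7 CPM per kb and 35.3 to 61.8 CPM over the 12 emerging libraries, and was called in no comparison. AT2G33850 is annotated as an E6-like protein, after a protein of cotton fibres, and AT5G33370 as a GDSL-like lipase. The coefficient of variation over the 12 emerging libraries had a median of 22.5% in the 70, against 14.5% over all genes past the emerging limit. The 2 sets were not matched for level, at a median of 16.7 CPM in the 70 and 32.7 CPM in all. The coefficient spans both genotypes and water supplies. It reached 93.7% for AT2G20870, which differed between genotypes. Sorted by annotated role, a grouping made after the values were seen, 11 concern cuticle and lipid, 9 metabolism and defence, 6 the cell wall, 4 the stomatal lineage, 4 the cell cycle and DNA, 3 auxin response, 3 leaf growth and trichomes, 8 other transcription regulators, and 22 have other or unknown roles.

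The cuticle set holds enzymes, exporters and a regulator. CYP86A4, CYP86A7 and CYP77B1 are cytochromes P450, the CYP86A family being fatty acid hydroxylases that make cutin monomers. ABCG13, ABCG8 and ABCG15 are ABC transporters, ABCG13 being known for cutin export in flowers. SHN2 is a transcription factor of the SHINE clade, which activates cuticle genes, and the set also has the GDSL-like lipase AT5G33370, the lipid-transfer-like AT1G62500, the hydrolase AT3G05600 and the fatty acid desaturase-like AT1G06100.

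Upstream sequence shows whether these genes share known elements. The 250 bases before the annotated start of the 68 protein-coding genes were read from TAIR10.1 and searched on both strands for 8 motifs, none of which is contained in another. An L1 box (TAAATGCA or TAAATGTA), an element known from epidermal genes, was in 10.3% of them (7 of 68) and in 4.49% of 27443 protein-coding genes, with 3 of the 11 cuticle and lipid genes among the 7. The GT3 box (GGTAAA), to which GTL1 is known to bind, was in 14.7% of the 68 and 14.8% of all. The core of the mitosis-specific activator (AACGG) was in 20.6% of both, and the G-box (CACGTG) in 4.41% and 6.49%. The telo box (AAACCCTA) was in 2.94% and 4.49%, and neither E2F site (TTTCCCGC or TTTGGCGC) was in any of the 68, against 0.958% of all. A match is a description of letters and not a shown binding site. The stretches below are printed 5′ to 3′ on the gene's strand with matches in capitals. They belong to the GDSL-like lipase gene, with an L1 box and 2 GT3 boxes, to 2 wall genes that were also higher in gtl1-4, one of them without any of the motifs, and to CYP77B1 and the mitotic cyclin gene CYCB2;1.
AT5G33370, minus strand, chr5:12604833-12605082: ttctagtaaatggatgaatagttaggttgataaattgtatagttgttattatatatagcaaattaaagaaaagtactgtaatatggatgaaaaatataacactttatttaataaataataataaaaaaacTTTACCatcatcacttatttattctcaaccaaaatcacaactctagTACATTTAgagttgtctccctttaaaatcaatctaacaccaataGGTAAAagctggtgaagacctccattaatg
AT2G20870, minus strand, chr2:8982713-8982962: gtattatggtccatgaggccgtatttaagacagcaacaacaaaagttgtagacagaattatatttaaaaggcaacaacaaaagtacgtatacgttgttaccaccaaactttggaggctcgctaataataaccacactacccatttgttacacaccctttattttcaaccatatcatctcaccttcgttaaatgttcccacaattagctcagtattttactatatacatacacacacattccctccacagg
AT5G55720, plus strand, chr5:22555745-22555994: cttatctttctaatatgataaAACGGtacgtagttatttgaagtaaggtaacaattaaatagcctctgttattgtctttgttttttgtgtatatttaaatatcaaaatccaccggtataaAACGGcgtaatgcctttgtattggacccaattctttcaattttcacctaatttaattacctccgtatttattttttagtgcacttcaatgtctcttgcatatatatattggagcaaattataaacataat
CYP77B1, plus strand, chr1:3901700-3901949: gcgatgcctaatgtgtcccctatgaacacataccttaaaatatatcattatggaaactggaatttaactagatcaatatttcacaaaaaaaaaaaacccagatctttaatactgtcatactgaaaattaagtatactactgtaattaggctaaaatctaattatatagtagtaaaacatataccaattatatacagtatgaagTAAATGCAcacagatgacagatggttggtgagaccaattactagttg
CYCB2;1, plus strand, chr2:7663805-7664054: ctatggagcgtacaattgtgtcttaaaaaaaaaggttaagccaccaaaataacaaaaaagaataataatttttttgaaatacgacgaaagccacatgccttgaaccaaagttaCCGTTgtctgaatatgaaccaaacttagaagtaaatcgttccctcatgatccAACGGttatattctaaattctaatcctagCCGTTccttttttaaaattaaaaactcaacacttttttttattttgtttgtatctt

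Response to genotype and water was tested in emerging leaves alone, which the rule used only as a mean over all 12 libraries. The test was limma on log2 of the authors' normalized count plus 1, over 18529 genes, with Benjamini-Hochberg adjustment over all of them, and a gene is called when its adjusted p is under 0.05. The 18529 genes have a mean of at least 10 on the authors' scale, which is not CPM. They include organellar genes, and 18366 of them are nuclear. Only 12340 genes reach 10 CPM, so the shares of all tested genes given below include genes under the limit that the 70 passed. Of the 70 genes, 21 were called in at least 1 comparison and 49 in none.

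In gtl1-4 emerging leaves, 4 genes annotated to the cell wall, the GDSL-like lipase gene AT5G33370, the hydroxylase gene CYP86A7 and NSP4 were higher than in Col-0 at both water supplies. Of the wall genes, AT2G20870, AT4G13210 and AT4G28160 reached the emerging limit only through gtl1-4 libraries. They had to differ in order to be included, and AT5G55720 is the wall gene to which this does not apply. Of the 70 genes, 8 were called higher in well-watered gtl1-4 and 0 lower, where 0.0971% of all tested genes were called higher and 0.0648% lower (0.162% in either direction). Under deficit 7 were called higher and 0 lower, against 0.13% and 0.054% of all (0.183% in either direction). Each of the 7 was among the 8, and the 2 comparisons have no library in common, though all 12 emerging libraries enter the same fit. At an unadjusted p under 0.05, 13 were higher and 0 lower when well-watered, and 14 higher and 2 lower under deficit. The shares of all tested genes at that cut were not computed, so these counts are not read as a trait of the 70.

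The rule bears on that count. A gene can reach the emerging limit through gtl1-4 libraries alone: AT2G20870, AT4G13210, AT4G28160 and SHN2 had a mean under 10 CPM over the 6 Col-0 libraries, at 2.58, 4.81, 6.49 and 7.66 CPM. These 4 had to differ in order to be included. Among the 55 genes with a mean of at least 10 CPM in each of the 4 groups, a restriction chosen after seeing the data, 4 were called higher at each water supply, namely AT5G33370, AT5G55720, CYP86A7 and NSP4. The same holds for water: AGL42 and CXE18 had a mean under 10 CPM over the 6 deficit libraries, at 7.48 and 9.80 CPM, and BGLU15 over the 6 well-watered ones, at 9.10 CPM. Among the 55 genes, 6 were called lower under deficit in gtl1-4 and 9 in Col-0, and 0 higher in either.

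AT2G20870, annotated as a cell wall protein precursor, had the largest difference of the 8. Like AT4G13210, AT4G28160 and SHN2, it reached the emerging limit only through gtl1-4 libraries. AT2G20870 thus had to differ in order to be included, and nothing is read from its rank or p-values. Its level was 18.1, 27.4 and 30.6 CPM in gtl1-4 and 2.50, 2.20 and 2.84 CPM in Col-0 under deficit. When well-watered it was 24.4, 40.8 and 34.2 CPM in gtl1-4 and 1.43, 3.42 and 3.07 CPM in Col-0. No gtl1-4 library came near a Col-0 library. The log2 fold change was 3.31 under deficit (SE 0.31, limma adjusted p = 3.51e-05) and 3.65 when well-watered (SE 0.31, limma adjusted p = 1.11e-05).

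A pair of pectin lyase-like genes, of a family that includes pectin-degrading enzymes, were higher as well. AT4G13210 had 24.9, 27.5 and 24.1 CPM in gtl1-4 and 3.48, 6.38 and 4.91 CPM in Col-0 under deficit, and 18.4, 21.6 and 26.6 CPM in gtl1-4 and 4.10, 5.98 and 4.04 CPM in Col-0 when well-watered. Its log2 fold change was 2.43 under deficit and 2.20 when well-watered (SE 0.23 each, limma adjusted p = 3.51e-05 and 0.0001). AT5G55720 had 41.5, 46.5 and 53.7 CPM in gtl1-4 and 13.9, 15.9 and 17.2 CPM in Col-0 under deficit, and 53.4, 76.9 and 68.2 CPM in gtl1-4 and 23.8, 27.4 and 22.1 CPM in Col-0 when well-watered. For both genes the lowest gtl1-4 library exceeded the highest Col-0 library. The log2 fold change of AT5G55720 was 1.62 under deficit and 1.39 when well-watered (SE 0.16 each, limma adjusted p = 4.19e-05 and 0.000324).

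AT4G28160, annotated as a hydroxyproline-rich glycoprotein, a class of structural wall proteins, had 27.7, 20.6 and 23.4 CPM in gtl1-4 and 6.68, 4.86 and 7.12 CPM in Col-0 under deficit. When well-watered it had 16.6, 19.5 and 23.3 CPM in gtl1-4 and 5.96, 8.55 and 5.79 CPM in Col-0, again without overlap. Its log2 fold change was 1.97 and 1.51 (SE 0.20 each, limma adjusted p = 4.95e-05 under deficit and 0.00144 when well-watered). AT2G20870, AT4G13210 and AT4G28160 each overlap an annotated gene on the other strand, whose mean levels were 0, 1.36 and 4.78 CPM, and whether strand was used in the counting is not known here.

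The GDSL-like lipase gene AT5G33370 was the most abundant of the 8 per length, at the 134.7 CPM per kb given above. It had 279, 333 and 306 CPM in gtl1-4 and 91.2, 94.2 and 93.0 CPM in Col-0 under deficit, and 268, 453 and 320 CPM in gtl1-4 and 83.6, 107 and 106 CPM in Col-0 when well-watered. Every gtl1-4 library was above every Col-0 library at each water supply. The log2 fold change was 1.75 at both supplies (SE 0.17 each, limma adjusted p = 3.62e-05 under deficit and 4.33e-05 when well-watered).

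The hydroxylase gene CYP86A7 had 27.2, 37.3 and 49.1 CPM in gtl1-4 and 14.2, 12.5 and 14.0 CPM in Col-0 under deficit, and 44.7, 65.6 and 45.7 CPM in gtl1-4 and 18.9, 24.8 and 21.7 CPM in Col-0 when well-watered. The groups did not overlap, and the log2 fold change was 1.47 under deficit and 1.20 when well-watered (SE 0.21 each, limma adjusted p = 0.00284 and 0.0234). The well-watered call was lost without any 1 of the well-watered Col-0 libraries, without gtl1-4 replicate 1 or 2, and without the low-value filter, and over 21 alternatives its adjusted p ranged from 0.000643 to 0.206. The cuticle regulator SHN2 had 16.1, 12.9 and 14.6 CPM in gtl1-4 and 11.8, 6.68 and 6.83 CPM in Col-0 under deficit, and 13.0, 17.7 and 20.3 CPM in gtl1-4 and 7.89, 6.69 and 6.06 CPM in Col-0 when well-watered. It was called when well-watered (log2 fold change 1.25, SE 0.21, limma adjusted p = 0.0230) and not under deficit (0.86, SE 0.21, limma adjusted p = 0.283). The well-watered SHN2 call was lost without any 1 of the well-watered Col-0 libraries, without gtl1-4 replicate 2 or 3, without the low-value filter, and with the replicate number as a block (limma adjusted p = 0.0506), with a range of 0.00236 to 0.163 over 21 alternatives.

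NSP4, a nitrile specifier protein that acts in glucosinolate breakdown, was the called gene outside wall and cuticle. Its level was 51.3, 76.5 and 71.2 CPM in gtl1-4 and 28.3, 30.5 and 28.6 CPM in Col-0 under deficit, and 110, 161 and 103 CPM in gtl1-4 and 49.2, 62.7 and 47.6 CPM in Col-0 when well-watered. On the log2 scale NSP4 differed by 1.20 and 1.17 (SE 0.19 each, limma adjusted p = 0.00883 under deficit and 0.0143 when well-watered). Its call was lost without Col-0 replicate 1 or 3 when well-watered (adjusted p = 0.111 and 0.108, in a range of 0.000179 to 0.111). Under deficit it was lost without Col-0 replicate 1 or 3 or gtl1-4 replicate 2 or 3, where the adjusted p was 0.0502 to 0.0791 in a range from 0.000758. NSP1 is 90.6% identical to NSP4 over 68.0% of its transcript, so reads could be divided between them.

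**Figure D2:**
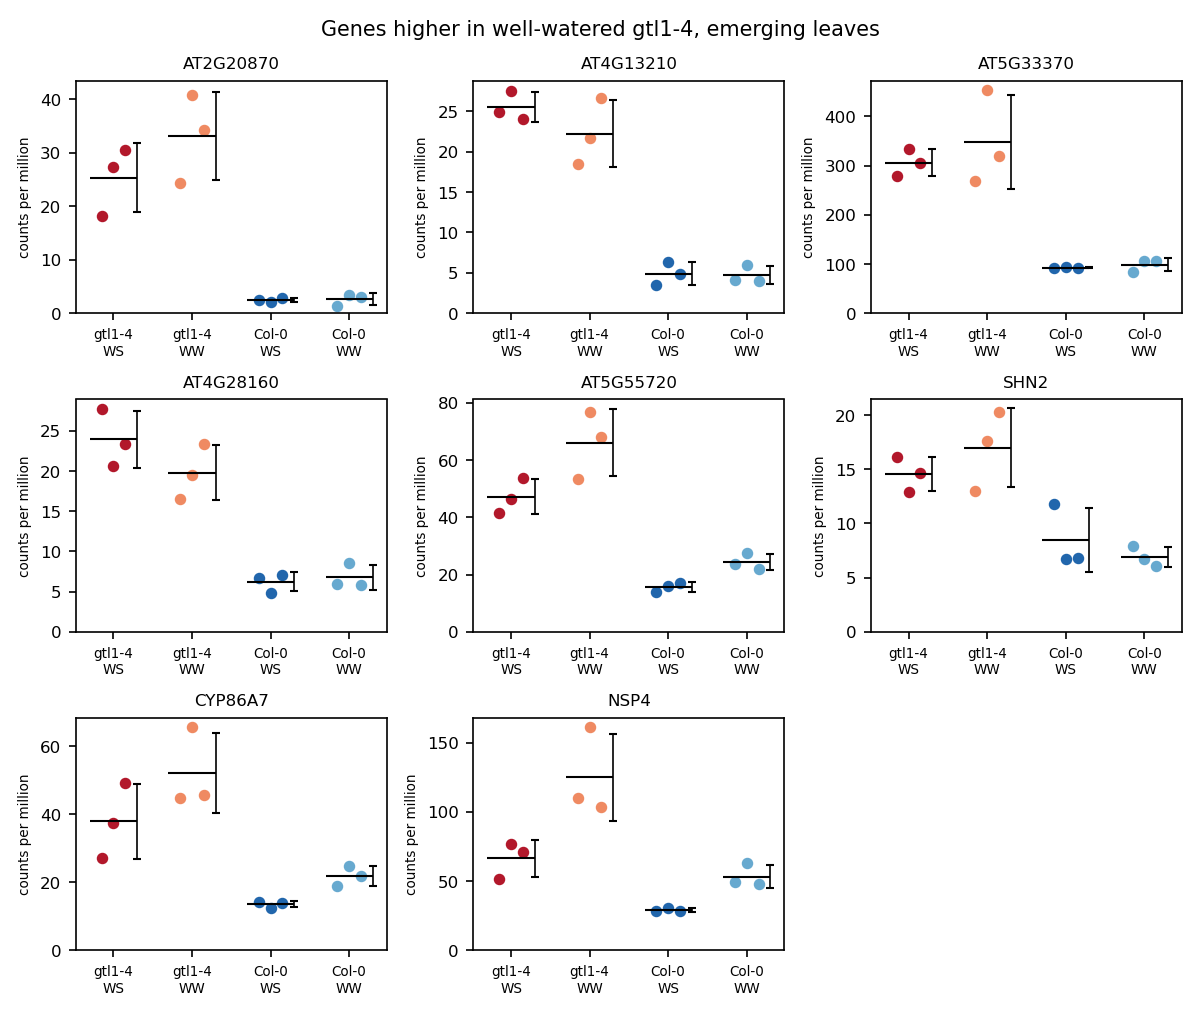
Levels in emerging leaves, in nuclear CPM, of the 8 genes called higher in well-watered gtl1-4; each point is a library, horizontal lines are means and bars are SD (n = 3). In each panel gtl1-4 under deficit (WS) and well-watered (WW) stand left of Col-0. In the first, AT2G20870, every gtl1-4 library is at 18.1 CPM or above and every Col-0 library at 3.42 CPM or below. AT2G20870, AT4G13210, AT4G28160 and SHN2 reached the emerging limit only through gtl1-4 libraries, so they had to differ in order to be included.

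Further genes lay in that direction without a call. CYP86A4 had log2 fold changes of 1.20 under deficit and 0.75 when well-watered (SE 0.23 each, limma adjusted p = 0.0576 and 0.499). For AT1G06100 they were 0.77 and 0.57 (SE 0.18, limma adjusted p = 0.23 and 0.523), and for the E6-like AT2G33850 0.52 and 0.62 (SE 0.15, limma adjusted p = 0.496 and 0.255). AT3G61840 and NADP-ME3, outside the wall and cuticle sets, lay in that direction too. Their log2 fold changes were 0.85 and 0.47 for AT3G61840 (SE 0.18, limma adjusted p = 0.088 and 0.626) and 0.52 and 0.36 for NADP-ME3 (SE 0.14, limma adjusted p = 0.436 and 0.668). AT2G33850 ranged from 503 to 785 CPM over the 6 gtl1-4 libraries, with a median of 567, and from 340 to 455 CPM over the 6 Col-0 libraries, with a median of 389. All 6 gtl1-4 libraries lay above all 6 Col-0 libraries for 9 of the 70 genes, against 0.376% of the 18366 tested nuclear genes. They lay below them for 0, against 0.114%. The 9 are AT2G33850, AT1G06100 and the called genes other than NSP4. They include the 4 genes that reached the limit through gtl1-4, so nothing is read from this count, and among the 55 genes it was 5.

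Other members of the cuticle set showed small differences: between gtl1-4 and Col-0, CYP77B1 differed by 0.01 on the log2 scale at both supplies (SE 0.20), and ABCG13 by -0.19 under deficit and 0.17 when well-watered (SE 0.17). Among 28 tested genes of an epidermis and cuticle list, 2 were called higher under deficit and 3 when well-watered, with none lower. The list holds 3 of the 70 genes, SHN2, CYP86A4 and CYP86A7, so these calls repeat CYP86A7 at both supplies and SHN2 when well-watered. The only called gene of the list outside the 70 was CYP77A6, a cutin hydroxylase gene. It differed by 0.92 under deficit and 1.04 when well-watered (SE 0.17, limma adjusted p = 0.0322 and 0.0143). The median log2 fold change of that list, its 3 genes from the 70 included, was 0.11 under deficit and 0.20 when well-watered. The medians of all tested genes were 0.00351 and -0.00284.

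Summed over the 8 called genes, gtl1-4 libraries held 486 to 582 CPM under deficit and Col-0 libraries 172 to 174 CPM. The well-watered sums were 549 to 857 CPM in gtl1-4 and 195 to 246 CPM in Col-0. These 8 were picked by the well-watered genotype comparison, so a gap in their sum follows from the choice and nothing is read from it. The other 61 genes without AT2G33850 summed to 1166 to 1344 CPM in gtl1-4 and 1183 to 1357 CPM in Col-0 under deficit, and 1379 to 1465 CPM in gtl1-4 and 1245 to 1391 CPM in Col-0 when well-watered. With AT2G33850, the other 62 genes summed to 1732 to 1912 CPM in gtl1-4 and 1556 to 1773 CPM in Col-0 under deficit. When well-watered these 62 summed to 1920 to 2164.5 CPM in gtl1-4 and 1606 to 1752 CPM in Col-0, without overlap. The 8 genes lie on 5 chromosomes. The sum of the 9 anther and pollen genes was 4.76 to 4.98 CPM in gtl1-4 and 2.20 to 4.62 CPM in Col-0 under deficit, and 4.33 to 4.54 CPM in gtl1-4 and 3.41 to 4.68 CPM in Col-0 when well-watered. The floral organ identity sum did not exceed 0.482 CPM in any gtl1-4 library and 0.966 CPM in any Col-0 library.

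No regulator of leaf patterning or division among the 70 was called between genotypes or water supplies, where 0.162% to 13.2% of all tested genes were called. With so few genes, the absence of calls is a description. Among them are the stomatal lineage genes SPCH, the bHLH factor that starts the lineage, EPF2, a secreted peptide that limits it, and BASL and AT4G31805 (POLAR), which mark the polar side of the dividing cell. SPCH had 25.4, 34.2 and 18.4 CPM in gtl1-4 and 24.1, 29.4 and 23.2 CPM in Col-0 under deficit, and 17.0, 20.3 and 22.2 CPM in gtl1-4 and 27.6, 19.3 and 17.2 CPM in Col-0 when well-watered. SPCH levels overlapped between the groups in each of the 4 comparisons. Its log2 fold change for genotype was 0.02 under deficit and -0.12 when well-watered, and for deficit 0.33 in gtl1-4 and 0.19 in Col-0 (SE 0.21 each). EPF2 differed by at most 0.36 on the log2 scale in size over the 4 comparisons, at -0.36 between well-watered gtl1-4 and Col-0 (SE 0.24, limma adjusted p = 0.821). BASL had its largest difference between genotypes under deficit, at -0.39 (SE 0.25, limma adjusted p = 0.907).

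AT4G31805 overlaps AT4G31810 on the other strand, which had a mean of 54.2 CPM, so its own 25.0 CPM is uncertain without strand. Its largest difference was under deficit in Col-0, at -0.37 (SE 0.16, limma adjusted p = 0.153). Summed, the 4 stomatal genes held 65.6 to 93.4 CPM in gtl1-4 and 71.7 to 90.3 CPM in Col-0 under deficit, and 65.5 to 85.7 CPM in gtl1-4 and 74.2 to 93.1 CPM in Col-0 when well-watered. None of 18 tested stomatal lineage genes in all was called in any of these comparisons.

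GRF5, a growth-regulating factor, had 19.7, 18.9 and 18.0 CPM in gtl1-4 and 23.7, 25.0 and 22.6 CPM in Col-0 under deficit, and 26.6, 26.5 and 20.6 CPM in gtl1-4 and 27.3, 22.5 and 26.4 CPM in Col-0 when well-watered. Under deficit gtl1-4 lay below Col-0 in all 3 libraries, yet the log2 fold change of -0.30 did not pass the test (SE 0.15, limma adjusted p = 0.878). In AN3, the coactivator of growth-regulating factors, the deficit response was 0.50 in gtl1-4 and 0.22 in Col-0 (SE 0.23 each, limma adjusted p = 0.195 and 0.582). MYB0 (GL1), which starts trichomes, held 14.5 to 21.9 CPM in gtl1-4 and 15.5 to 18.7 CPM in Col-0 under deficit, and 20.06 to 20.7 CPM in gtl1-4 and 16.2 to 21.9 CPM in Col-0 when well-watered.

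The cell cycle genes are CDKB1;2 and CYCB2;1, a mitotic kinase and cyclin, and ICK6 (KRP3), an inhibitor of cyclin-dependent kinases. CDKB1;2 showed its largest difference under deficit in gtl1-4, at -0.55 (SE 0.24, limma adjusted p = 0.177), where gtl1-4 replicate 2 had 6.64 CPM against 14.9 and 14.1 CPM in the other deficit libraries of that genotype. It overlaps AT2G38630 on the other strand, with a mean of 25.7 CPM. CYCB2;1 differed by at most 0.18 in size (SE 0.18), and the differences of ICK6 lay between -0.18 and -0.10 (SE 0.25). The wider mitosis list had 1 of 32 genes called lower under deficit in Col-0, and 0 in gtl1-4 or between genotypes.

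**Figure D3:**
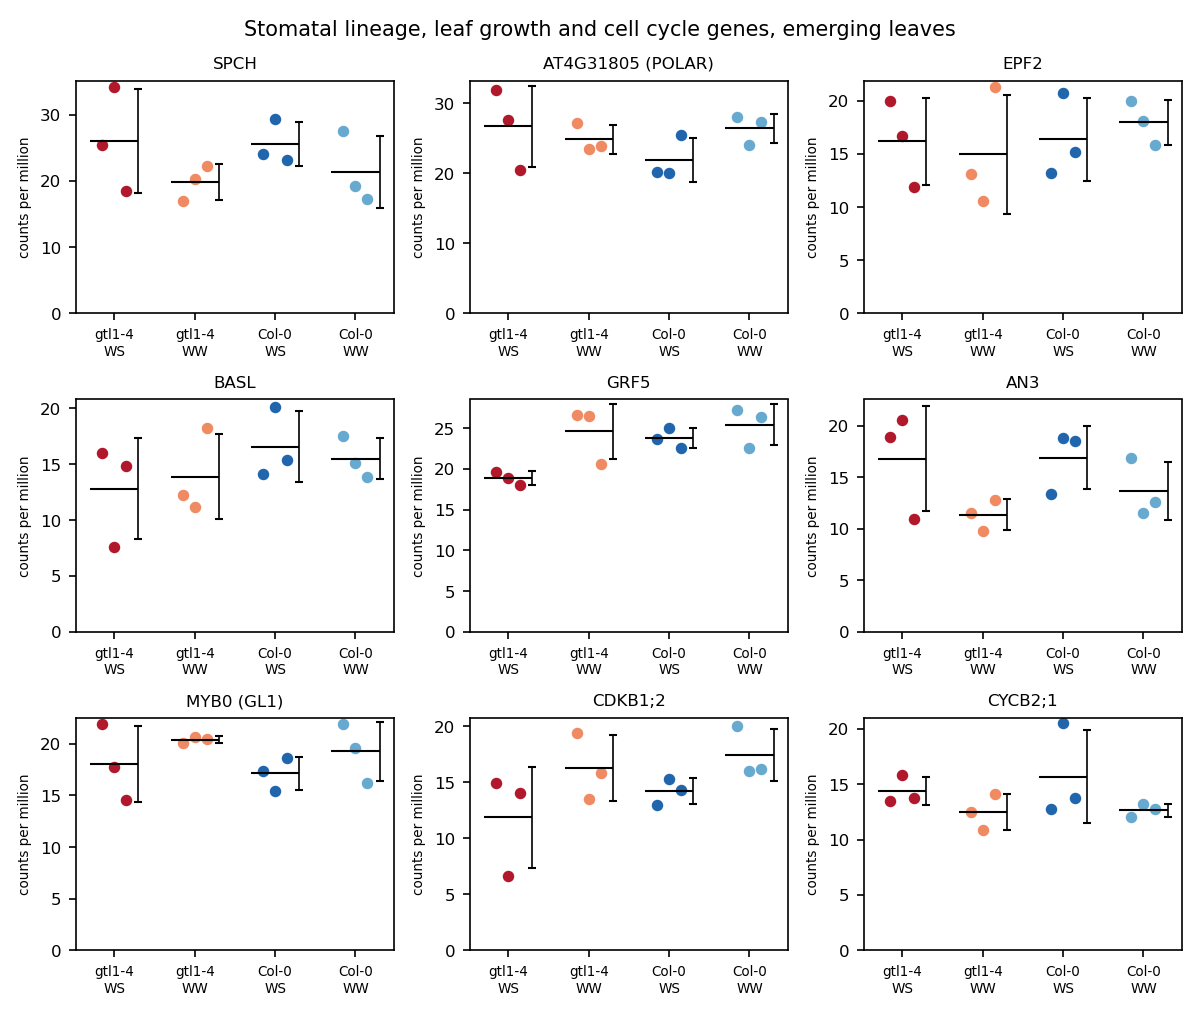
Levels in emerging leaves, in nuclear CPM, of 9 stomatal lineage, leaf growth and cell cycle genes; each point is a library, horizontal lines are means and bars are SD (n = 3). The gtl1-4 and Col-0 libraries overlap over the 2 water supplies in every panel, for example 17.0 to 34.2 CPM in gtl1-4 and 17.2 to 29.4 CPM in Col-0 for SPCH.

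Under water deficit more of the 70 genes were lower than higher in both genotypes, mostly in lipid, defence and metabolic roles. In gtl1-4, 8 were called lower and 1 higher, where 3.9% of all tested genes were lower and 4.98% higher. In Col-0, 11 were called lower and 2 higher, against 6.69% and 6.48% of all. In either direction that makes 9 genes in gtl1-4 and 13 in Col-0, beside 8.87% and 13.2% of all tested genes. As shares of the 70, the lower calls were 11.4% in gtl1-4 and 15.7% in Col-0. The median log2 fold change of the 70 was -0.18 in gtl1-4 and -0.17 in Col-0, beside -0.00231 and -0.00329 over all genes tested.

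The 2 genotypes moved alike in direction. In both, 5 genes were called lower and 1 higher, none was called in opposite directions, and 57 of the 70 had fold changes of the same sign. The shares over all tested genes were not computed for these counts, so they are not read as a trait of the 70. The 2 water responses have no library in common, though all 12 emerging libraries enter the same fit. The count in gtl1-4 rests on single libraries: it was 5, 5, 4, 4 and 3 without Col-0 WW replicate 2, Col-0 WW replicate 3, gtl1-4 WW replicate 1, gtl1-4 WW replicate 2 and gtl1-4 WS replicate 1.

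AGL42, a MADS-box transcription factor that reached the limit of 10 through its well-watered libraries, had the largest fall of the called genes. AGL42 thus had to differ between water supplies in order to be included, and nothing is read from its rank or p-values. It held 9.27, 5.28 and 6.82 CPM under deficit and 15.4, 15.0 and 26.5 CPM when well-watered in gtl1-4, and 6.71, 11.4 and 5.44 CPM under deficit and 14.6, 22.0 and 18.9 CPM when well-watered in Col-0. Every deficit library was below every well-watered one. The log2 fold change was -1.42 in gtl1-4 and -1.37 in Col-0 (SE 0.28 each, limma adjusted p = 0.00515 and 0.00488).

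AT1G62500, annotated in the lipid-transfer protein family, fell to 26.6, 35.5 and 23.98 CPM under deficit, against 84.6, 86.0 and 52.6 CPM when well-watered in gtl1-4. In Col-0 it held 32.8, 34.9 and 35.2 CPM under deficit and 64.9, 59.2 and 65.0 CPM when well-watered. This is a log2 fold change of -1.38 in gtl1-4 and -0.97 in Col-0 (SE 0.19 each, limma adjusted p = 0.000387 and 0.00429). AT1G62500, AGL42 and TYRDC were the 3 of 70 genes with all 6 deficit libraries below all 6 well-watered ones, a pattern held by 3.64% of all tested genes.

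NSP4, the nitrile specifier gene given above for its genotype difference, fell in both genotypes, with log2 fold changes of -0.93 in gtl1-4 and -0.95 in Col-0 (SE 0.19 each, limma adjusted p = 0.00659 and 0.00429). NADP-ME3, a malic enzyme, held 20.9, 23.8 and 26.3 CPM under deficit and 33.9, 34.7 and 29.0 CPM when well-watered in gtl1-4, and 15.3, 18.1 and 16.9 CPM under deficit and 25.9, 23.2 and 24.8 CPM when well-watered in Col-0. The groups did not overlap within a genotype, and the log2 fold change was -0.48 in gtl1-4 and -0.64 in Col-0 (SE 0.14 each, limma adjusted p = 0.0478 and 0.00862). The hydrolase gene AT3G05600 held 37.8, 45.6 and 41.8 CPM under deficit and 59.7, 56.3 and 53.2 CPM when well-watered in gtl1-4, and 39.9, 40.7 and 36.0 CPM under deficit and 50.7, 57.2 and 44.2 CPM when well-watered in Col-0. Its log2 fold change was -0.46 and -0.47 (SE 0.12 each, limma adjusted p = 0.0277 in gtl1-4 and 0.0193 in Col-0).

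One gene rose in both genotypes. AT1G48660, annotated as an auxin-responsive GH3 family protein, a family that includes enzymes conjugating auxin to amino acids, held 16.6, 18.0 and 15.1 CPM under deficit and 10.8, 8.20 and 13.3 CPM when well-watered in gtl1-4. In Col-0 it held 17.7, 15.1 and 14.6 CPM under deficit and 10.2, 10.3 and 8.95 CPM when well-watered. All 6 deficit libraries lay above all 6 well-watered ones, as they did for 6.45% of the 18366 tested nuclear genes. The log2 fold change was 0.62 in gtl1-4 and 0.59 in Col-0 (SE 0.16 each, limma adjusted p = 0.0262 and 0.0237). The other GH3 gene of the set, BRU6, had fold changes of the other sign that did not pass the test (-0.64 in gtl1-4 and -0.48 in Col-0, SE 0.21, limma adjusted p = 0.077 and 0.156).

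**Figure D4:**
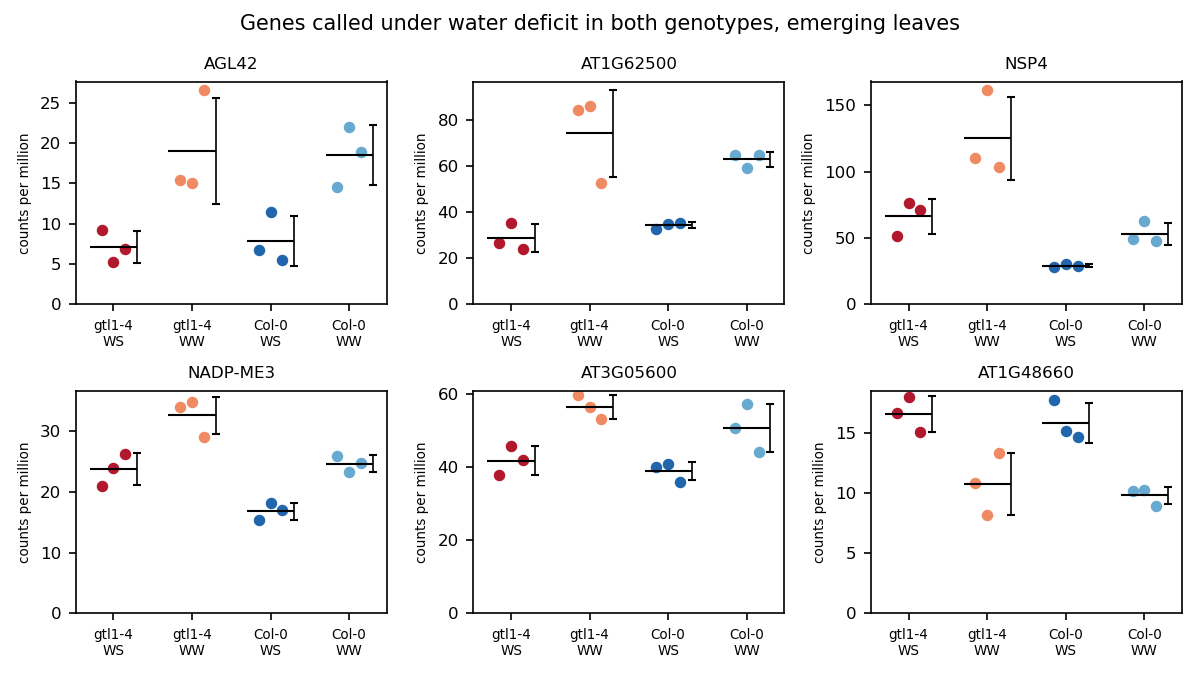
Levels in emerging leaves, in nuclear CPM, of the 6 genes called under water deficit in both genotypes; each point is a library, horizontal lines are means and bars are SD (n = 3). Deficit (WS) stands left of well-watered (WW) within each genotype; AT1G48660 is higher under deficit and the other 5 are lower.

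Several calls were made in a single genotype, and in none of them was the difference between the genotypes' responses called. In gtl1-4 these were ABCG13 at -0.61 (SE 0.17, limma adjusted p = 0.0392), the methionine salvage gene ARD3 at -0.84 (SE 0.25, limma adjusted p = 0.0481) and the carboxylesterase gene CXE18 at -0.71 (SE 0.21, limma adjusted p = 0.048). In Col-0, ABCG13, ARD3 and CXE18 had fold changes of -0.25, -0.70 and -0.19. With the replicate number as a block, ARD3, CXE18 and NADP-ME3 were not called in gtl1-4. ARD3 was also not called on the nuclear CPM scale. With only the 2 groups fitted, none of these 3 genes nor ABCG13, AT3G05600 or AT1G48660 was called, and without the low-value filter none of ABCG13, ARD3, CXE18 and NADP-ME3. The calls of ABCG13, ARD3, CXE18 and NADP-ME3 in gtl1-4 were lost without any 1 of 6 to 8 of the 12 libraries, Col-0 libraries included, all of which enter the same fit. ABCG13 was lost without gtl1-4 WS replicate 1, gtl1-4 WW replicate 1 or 2, or any Col-0 WW replicate. ARD3 was lost without gtl1-4 WS replicate 1 or 3, gtl1-4 WW replicate 1 or 3, Col-0 WS replicate 1, or any Col-0 WW replicate. CXE18 was lost without gtl1-4 WS replicate 1 or 2, gtl1-4 WW replicate 1 or 2, Col-0 WS replicate 1 or 3, or Col-0 WW replicate 2 or 3. NADP-ME3 was lost without gtl1-4 WS replicate 1 or 2, gtl1-4 WW replicate 1 or 2, Col-0 WS replicate 3, or any Col-0 WW replicate. AT3G05600 was lost in gtl1-4 without WW replicate 1 or 2 or WS replicate 1, and in Col-0 without WW replicate 1 or 2 or WS replicate 1 or 3. AT1G48660 was lost in gtl1-4 without WW replicate 1 or 2 or WS replicate 1 or 2, and in Col-0 without any WW replicate or WS replicate 1.

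Calls in Col-0 alone were made for 7 genes. AT3G56220, annotated as a transcription regulator, held 9.03, 10.97 and 12.03 CPM under deficit and 28.9, 20.5 and 23.2 CPM when well-watered in Col-0, a log2 fold change of -1.26 (SE 0.27, limma adjusted p = 0.00619), and its fold change in gtl1-4 was -0.53. TYRDC, a tyrosine decarboxylase, held 13.9, 14.8 and 18.4 CPM under deficit and 34.1, 23.4 and 27.0 CPM when well-watered in Col-0, a log2 fold change of -0.93 (SE 0.18, limma adjusted p = 0.00325), beside -0.55 in gtl1-4. BGLU15, a beta-glucosidase, was higher at 16.4, 19.4 and 17.0 CPM under deficit and 8.51, 9.25 and 8.95 CPM when well-watered in Col-0. Its log2 fold change was 0.89 in Col-0 (SE 0.19, limma adjusted p = 0.00604) and 0.38 in gtl1-4.

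The remaining Col-0 calls were CYP86A4 at -0.86, CYP86A7 at -0.77, the pectin lyase-like AT5G55720 at -0.73 and AT3G61840 at -0.70, with limma adjusted p of 0.0237, 0.0231, 0.00695 and 0.0175. All 4 are genes described above as higher in gtl1-4 or lying in that direction, and their water and genotype comparisons share Col-0 libraries. In gtl1-4 the 4 genes had fold changes of -0.41, -0.50, -0.50 and -0.31. Leaving out single Col-0 libraries ended the calls of CYP86A4 (any but WS replicate 2), CYP86A7 (WW replicates 2 and 3, WS replicates 1 and 2) and AT3G61840 (WW replicates 1 and 2). The interaction of genotype and water was called for 0 of the 70 genes and 0% of all genes tested. At an unadjusted p under 0.05 it was higher for 0 and lower for 2 of the 70, and the smallest limma adjusted p was 0.889. The share of all tested genes at that unadjusted cut was not computed either.

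By role, the calls are given as counts alone. Of the 6 cell wall genes, 4 were called higher in gtl1-4 at both supplies, of which only AT5G55720 reached the limit of 10 in Col-0 as well. In the cuticle and lipid set 2 of 11 were higher in gtl1-4 under deficit and 3 when well-watered, and 3 and 4 were lower under deficit in gtl1-4 and in Col-0. Of the 9 metabolism and defence genes 4 were lower under deficit in gtl1-4 and 3 in Col-0. The 4 stomatal, 4 cell cycle and 3 leaf growth and trichome genes had no call, beside 0.162% and 0.183% of all genes called between genotypes and 8.87% and 13.2% for water.

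**Figure D5:**
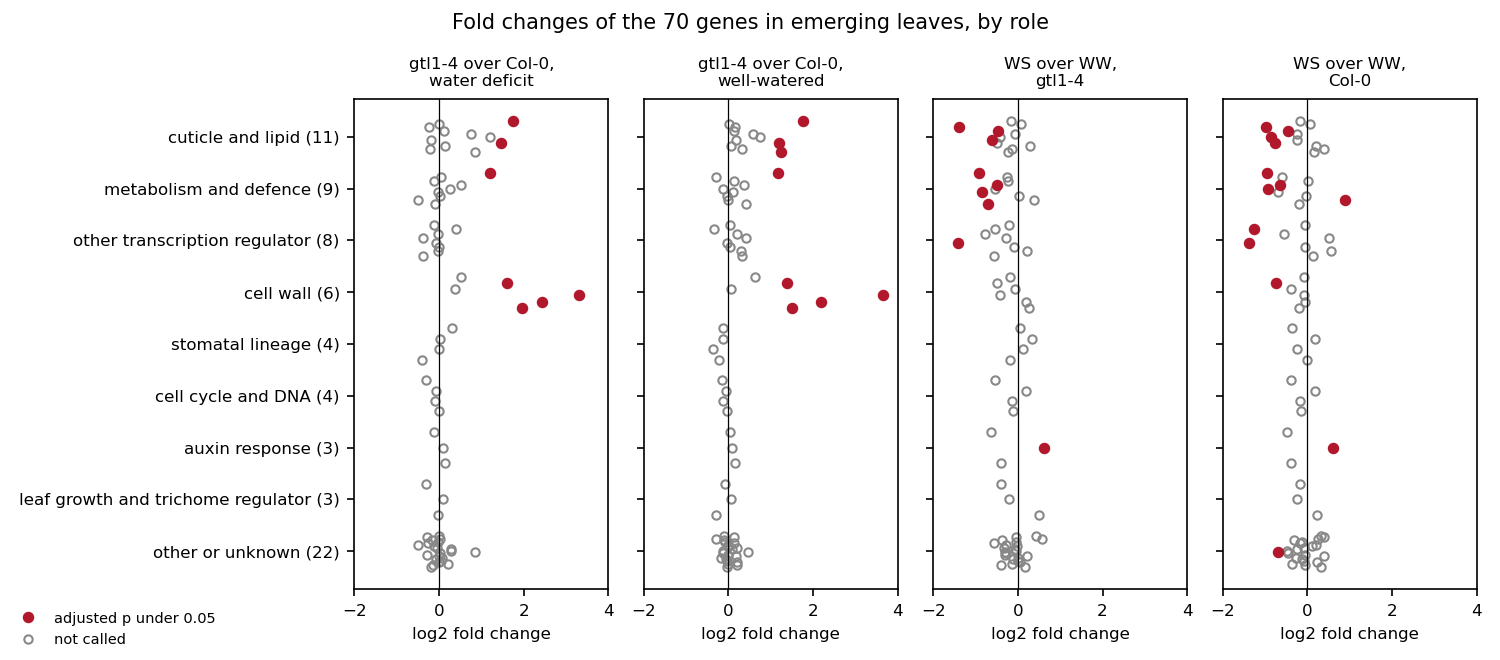
Fitted log2 fold changes of the 70 genes in emerging leaves in 4 comparisons, arranged by role with the number of genes in brackets; each circle is a gene and filled circles have a limma adjusted p under 0.05. The filled circles on the right of the genotype panels are cell wall, cuticle and lipid genes and NSP4, and those of the water panels lie mostly on the left.

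DNA replication genes differed with water supply too. Of 23 DNA replication genes, none of them among the 70, 9 were called lower under deficit in gtl1-4 and 12 in Col-0, and their summed level was 1790 to 2195 CPM under deficit and 2458 to 2673 CPM when well-watered in gtl1-4, and 1817 to 2296 CPM under deficit and 2694 to 2733 CPM when well-watered in Col-0. Genes of the mature photosynthetic leaf summed to 35854 to 44066 CPM under deficit and 32304 to 34407 CPM when well-watered in gtl1-4, with 38146 to 40129 CPM under deficit and 34130 to 38540 CPM when well-watered in Col-0. The root gene sum was 3.56 to 9.90 CPM under deficit and 3.32 to 6.78 CPM when well-watered in gtl1-4, and 11.2 to 14.7 CPM under deficit and 2.61 to 7.76 CPM when well-watered in Col-0, where 1 of its 2 tested genes was called higher. The part of leaf stage and of root RNA in the water and genotype responses was not tested. Between genotypes, 0 of the 23 DNA replication genes and 0 of the 32 mitosis genes were called.

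A pair of genes of unknown function are a caution on counts. AT5G36710 and AT5G36800 share 984 identical bases, which are 66.4% and 97.3% of their transcripts. Reads within those bases cannot be assigned to either gene, so their 10.8 and 11.7 CPM are uncertain. JASON, at 15.3 CPM, overlaps 2 genes on the other strand with means of 27.9 and 148.7 CPM.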

How the data were processed

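Values deposited by the authors are normalized counts (a signal scale: each library's gene counts over its own size factor), a table per leaf age. Per the submitters' processing notes, bcl2fastq, Trimmomatic, FastQC, Trim Galore, STAR, RSEM and the build TAIR10 were used; how the counts were normalized is not stated there. Between 96.5 and 97.9% of low values were whole multiples of a step (tolerance 0.002) and the rest were fractions of it, so no count model was used. Members and gene lists were chosen with earlier results of these data known. Levels are nuclear CPM, with 11.4 to 32.8 M per emerging library. Tests used limma 3.58.1 in R 4.3.3 (variance trend) on log2(value + 1), 12 emerging libraries in 4 groups, mean of at least 10 on the authors' scale and not in CPM. Fold changes understate low genes. Replicates differed by more than sampling noise, and p-values reflect the spread between pools of 10 plants. Well-watered gtl1-4 replicate 2 of emerging leaves stood furthest from its replicates, with a chi-square per degree of freedom of 169.9 against replicate 1 and 147.2 against replicate 3. Between replicates 1 and 3 it was 28.9. Alternatives were other pseudocounts, filters, scalings and weights, a replicate block and leaving out each library. Named are the 12 genes highest in emerging leaves, called genes, list genes and genes at the limits. Transcripts were compared with blastn 2.17.0, and figures drawn with matplotlib 3.10.9. Names and upstream sequence come from RefSeq's TAIR10.1. The limma step was tested on simulated data.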

Additional observations from a re-analysis of the deposited data

How the results depend on the processing

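Over the alternatives run, no fold change of a called gene reversed, and of 777 recomputed gene results 687 stayed called and 90 were lost. The 5 genes AT2G20870, AT4G13210, AT4G28160, AT5G33370 and AT5G55720 kept both genotype calls under all 21 alternatives. The first 3 of these reached the emerging limit through gtl1-4 libraries, and the alternatives for single genes kept the same members, so they do not test that choice. The number of members was 189 when organellar genes stayed in the total (55 of them shared), 44 and 141 with expanding limits of 0.25 and 1, and 142 and 29 with emerging limits of 5 and 20. With the expanding limit at 1, water calls were 15 in gtl1-4 and 23 in Col-0. In gtl1-4 they were 5 without the low-value filter, 16 with array weights and 3 with only the 2 groups fitted, where the main count was 9. Restricted to genes reaching 10 CPM in each of the 4 groups, a choice made after seeing the data, genotype calls were 4 at each supply and water calls 6 in gtl1-4 and 9 in Col-0. Leaving out 1 library gave 3 to 12 water calls in gtl1-4 and 9 to 14 in Col-0, 6 to 9 genotype calls under deficit, 5 to 8 when well-watered (5 without Col-0 replicate 1 or 3) and 0 interaction calls. The cause of these changes was not tested. Replicate numbers were not shown to pair samples: r was -0.28 to 0.20 between same-numbered libraries, with 3 of 18 over 0.1. Between other-numbered libraries r was -0.20 to 0.33, with 8 of 36 over 0.1. With 3 libraries a group, these correlations cannot exclude a shared batch. A block on replicate number gave 8 water calls in gtl1-4 (without ARD3, CXE18 and NADP-ME3) and 13 in Col-0. It gave 8 genotype calls under deficit and 7 when well-watered, and 0 interaction calls.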
